A study of Homo sapiens with 36 samples.

Results

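PDE11A is 1 gene, followed here through all 36 libraries of the series. It has 1 row in each of the 3 deposited tables, which list 60642 genes (K562 degron set), 57820 genes (HEL set) and 13707 genes (LDB1 set). It was chosen because its values in these tables differed between the LMO2 degron lines and stood far above the control with both LDB1 shRNAs. Its levels in those samples are therefore given as a description, and no test of it there is read. Tests of PDE11A are read only where the choice did not compare the samples, which are the K562 lines without a degron and the HEL cells. Other genes were tested in the degron lines too.

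K562 cells derive from a chronic myeloid leukemia and keep erythroid features. HEL cells derive from an erythroleukemia. The K562 degron set holds 24 libraries of 4 lines. Cells labelled LMO2 degron rep 2 and LMO2 degron rep 1 are read here as degron line 2 and degron line 1, in which LMO2 carries a tag that dTAGv1, a molecule that brings an E3 ubiquitin ligase to the tag, marks for breakdown. The other lines are one labelled LMO2 control, with no construct named in the sources used here, and the parental K562 cells. Day 0 cells of each line had no dTAGv1, and cells of day 1 and day 4 had it at 750 uM (the labels' unit). There were 2 libraries (bio rep 1 and 2) of each line at each time. The parental and LMO2 control cells thus received dTAGv1 as well. The LDB1 set holds 1 K562 library with LDB1 shRNA 1, 1 with LDB1 shRNA 2 and 1 with a control shRNA. The HEL set holds 3 libraries electroporated with TAL1 siPool 1, 3 with TAL1 siPool 2 and 3 with a non-targeting control pool. The sources used here do not say whether a degron line is 1 clone or whether bio reps are separate cultures, so p-values measure the spread between these libraries only.

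PDE11A encodes a phosphodiesterase that breaks down both cyclic AMP and cyclic GMP, second messengers made by adenylyl and guanylyl cyclases. Cyclic AMP acts largely through protein kinase A, whose catalytic subunits are held by regulatory subunits until cyclic AMP binds, and which then activates CREB-family transcription factors. PDE11A is best known from the adrenal cortex, prostate and brain rather than from blood cells. LMO2 and LDB1 are adaptors that do not bind DNA themselves. They join TAL1 with its E-protein partners, which bind E-boxes, and GATA1, which binds GATA motifs, in one complex in erythroid cells.

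The gene lies on chromosome 2 and is read from the minus strand. RefSeq (GRCh38.p14) has 4 PDE11A start sites in the promoter table used here, each given as a window of 250 bases before to 50 bases after the start. The windows of the most upstream start and of the most downstream start are shown, because they bound the gene's alternative starts and because the downstream one alone holds 2 E-box matches. Capitals mark matches to CAGNTG, an E-box form. Bases run 5′ to 3′ on the gene's strand.
PDE11A start site 1, chr2:178108290-178108589, minus strand: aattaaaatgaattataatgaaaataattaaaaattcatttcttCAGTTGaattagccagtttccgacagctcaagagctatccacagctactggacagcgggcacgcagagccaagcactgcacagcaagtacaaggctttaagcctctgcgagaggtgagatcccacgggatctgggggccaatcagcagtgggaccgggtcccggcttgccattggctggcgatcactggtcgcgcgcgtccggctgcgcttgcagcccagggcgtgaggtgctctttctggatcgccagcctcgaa
PDE11A start site 4, chr2:177888707-177889006, minus strand: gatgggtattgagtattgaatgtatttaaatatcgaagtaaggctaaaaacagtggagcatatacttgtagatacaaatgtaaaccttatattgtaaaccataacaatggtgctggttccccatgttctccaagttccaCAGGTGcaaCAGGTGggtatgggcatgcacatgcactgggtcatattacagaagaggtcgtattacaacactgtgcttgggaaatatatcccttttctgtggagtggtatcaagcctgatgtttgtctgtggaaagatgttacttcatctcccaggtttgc
Counted from the start site, the E-box letters began at -206 in site 1 and at -111 and -102 in site 4. Of the windows not shown, that of start site 3 held CAGNTG once, at -113, and that of start site 2 held none. The GATA-type letters TGATAA and AGATAA were in none of the 4 windows. Among 35116 promoter windows of the same 300 bases, 16.3% held TGATAA or AGATAA and 49.9% held CAGNTG, so neither a match nor its absence sets the gene apart. All motifs were searched on both strands, and none of the 3 contains another. The deposited values are summed over the gene and do not tell the start sites apart. The deposited tables were made on hg19, and no coordinate of one build is set against the other.

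Each library of the degron set held 16434203 to 24791104 reads, recovered from the whole-number steps of the FPKM values (fragments per kilobase of gene, scaled to library size), and the HEL libraries held 15869619 to 27029836 counts. For the LDB1 set the depth is unknown. LMO2 RNA, which dTAGv1 does not target since it acts on protein, averaged 146, 188 and 249.6 FPKM on days 0, 1 and 4 in degron line 2 and 139, 186 and 213 FPKM in degron line 1. In LMO2 control cells it averaged 250, 270 and 365 FPKM on those days, and in parental cells 34.7, 38.9 and 41.0 FPKM. A rise was thus not particular to the degron lines. In degron line 1 bio rep 1 measured 132, 128 and 155 FPKM, and bio rep 2 measured 146, 244 and 271 FPKM. LDB1 stood at 62.4 TPM with LDB1 shRNA 1 and 69.6 TPM with LDB1 shRNA 2, against 468 TPM with the control shRNA (transcripts scaled to length and to 1 common total, 1 library each). TAL1 averaged 179 CPM (counts scaled to library size) with pool 1 and 188 CPM with pool 2, against 466 CPM with the non-targeting pool, a log2 change of -1.38 ± 0.08 (SE, n = 3 libraries a group) for pool 1 and -1.31 ± 0.08 for pool 2 (edgeR adjusted p = 5.41e-06 and 1.03e-05). Erythroid markers were present in the degron set, with GATA1 at 51.9 to 186 FPKM and HBG1 at 13.3 to 285 FPKM over the 24 libraries, while CD3E, CD14 and COL1A2 stayed at or under 0.417 FPKM and the monocyte marker LYZ ran between 3.16 and 57.3 FPKM.

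PDE11A RNA was abundant in degron line 1 after dTAGv1 and scarce in every other line. In degron line 2 it measured 0.237 and 0.241 FPKM on day 0, 0.233 and 0.372 FPKM on day 1, and 0.460 and 0.375 FPKM on day 4. In degron line 1 it measured 1.63 and 2.13 FPKM on day 0, 3.48 and 4.44 FPKM on day 1, and 19.2 and 15.4 FPKM on day 4. The libraries of degron line 1 stood above every library of degron line 2 on each day, including day 0, before any dTAGv1, and within degron line 1 the 3 days did not overlap. In degron line 2 the day 0 and day 1 libraries overlapped, and both day 4 libraries stood above them.

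**Figure D1:**
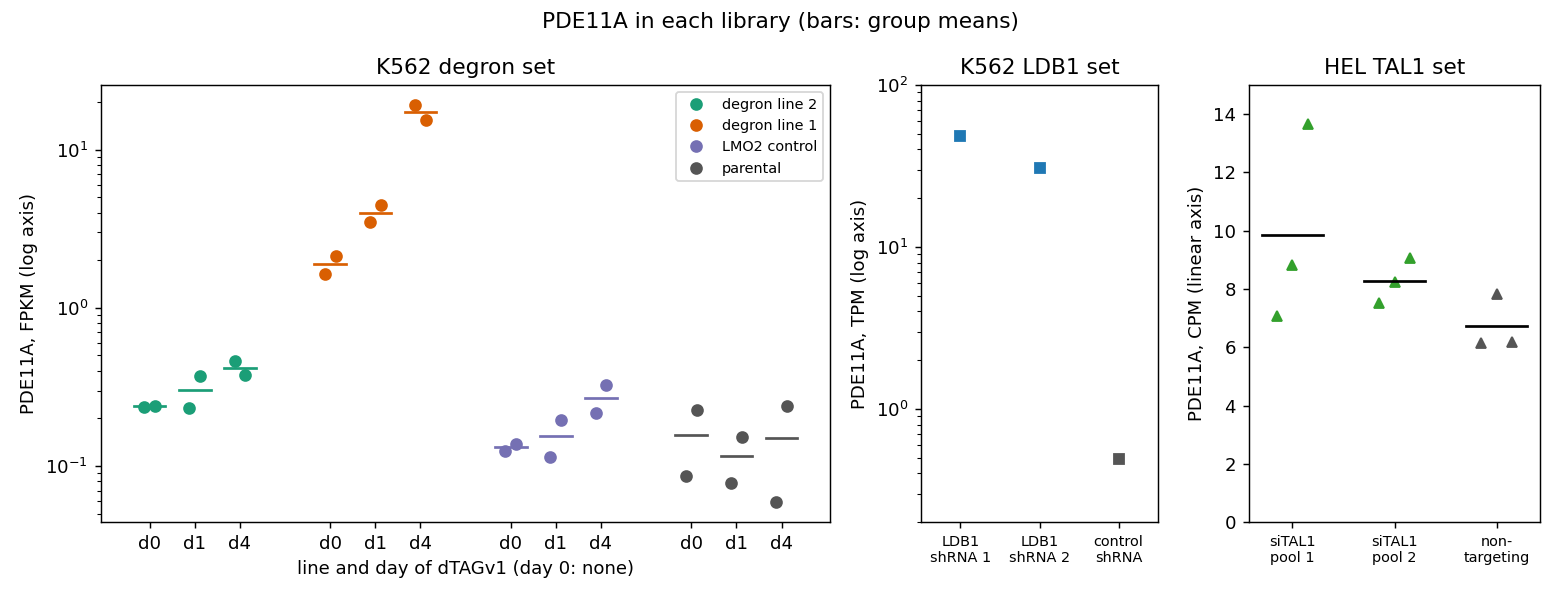
PDE11A in every library: FPKM on a log axis by line and day in the K562 degron set (left), CPM in HEL and TPM in the LDB1 set, with each point 1 library. Degron line 1 climbs to 15.4 and 19.2 FPKM on day 4 while the other 18 libraries of the set lie between 0.0590 and 0.460 FPKM, and both LDB1 shRNA libraries (48.4 and 30.9 TPM) lie above the control shRNA (0.489 TPM).

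In the lines without a degron PDE11A lay in or below the range of degron line 2. The LMO2 control line measured 0.125 and 0.137 FPKM on day 0, 0.114 and 0.196 FPKM on day 1, and 0.216 and 0.326 FPKM on day 4. Parental cells measured 0.0870 and 0.225 FPKM on day 0, 0.0777 and 0.153 FPKM on day 1, and 0.0590 and 0.241 FPKM on day 4. In parental cells the bio rep 2 library was the higher one on each day, and the days overlapped.

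In reads, the 6 libraries of degron line 1 held 492 to 5398 PDE11A reads, and the 18 other libraries held 17 to 118, with a median level of 0.221 FPKM. PDE11A therefore passed the filter of 1 FPKM in 2 libraries through degron line 1 alone. As group means the line 1 levels were 1.88 ± 0.350, 3.96 ± 0.675 and 17.3 ± 2.65 FPKM on days 0, 1 and 4 (SD, n = 2), and those of degron line 2 were 0.239 ± 0.00295, 0.303 ± 0.0984 and 0.418 ± 0.0596 FPKM. Degron line 1 thus reached 2.11 times its own day 0 mean on day 1 and 9.21 times on day 4, and degron line 2 reached 1.27 and 1.75 times.

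Between the lines, the ratio of degron line 1 to degron line 2 was 7.87 on day 0, 13.1 on day 1 and 41.5 on day 4. Against parental cells of the same day, degron line 2 stood at 1.53, 2.62 and 2.78 times on days 0, 1 and 4, and degron line 1 at 12, 34.3 and 115 times. On the log2(FPKM + 1) scale, which compresses low values, the change from day 0 was 0.07 ± 0.11 on day 1 and 0.19 ± 0.06 on day 4 in degron line 2 (SD over bio reps, n = 2), and 0.78 ± 0.02 and 2.67 ± 0.39 in degron line 1. PDE11A lay at the 6.94th percentile of the 15348 genes tested in degron line 2 on day 4 and at the 3.58th on day 0. In degron line 1 it lay at the 81.3rd percentile on day 4 and at the 30.4th on day 0.

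Ordered by mean level, the lowest 5 groups were parental day 1, LMO2 control day 0, parental day 4, LMO2 control day 1 and parental day 0, and each overlapped the next in the order up to parental day 0. Degron line 2 day 0, LMO2 control day 4 and degron line 2 day 1 followed and overlapped each other in turn. Degron line 2 day 4 and then degron line 1 on days 0, 1 and 4 came last, each above the group before it with no overlap. With 2 libraries a group, a gap between neighbours is a gap between 4 values. Across all genes the difference between the lines in the day 4 change (degron line 2 minus degron line 1) passed limma's test at an adjusted p under 0.05 for 2 of 15348 genes, or 0.013% (0.00652% in each direction), with 471 genes at an unadjusted p under 0.05. One of the 2 was PDE11A, which was chosen on this contrast, so nothing is read from its place there. The other, named after its values were seen, was SLITRK6, a neuronal transmembrane protein, at 1.296 ± 0.18 (SE; adjusted p = 0.0250). The number of genes called depended on the fit. With the bio rep as a block limma called 1 gene higher, SLITRK6, and 3 lower. Besides PDE11A the lower ones were KLF1 (limma adjusted p = 0.00750) and AQP10 (0.000101), also named after their values were seen. AQP10 stood at -2.05 ± 0.44 in the main test (SE; limma adjusted p = 0.542).

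In the lines on which PDE11A was not chosen, its level was too low for the test to say much. It entered the fit through degron line 1 alone, and the 12 libraries concerned held 17 to 99 reads of it, where a doubling is small on the log2(FPKM + 1) scale, so a change that did not pass is no sign of an equal level. The LMO2 control line minus parental cells, over all days, was 0.06 ± 0.08 on the log2(FPKM + 1) scale (SE, n = 6 libraries a line; limma adjusted p = 0.774), in a comparison where 6.49% of genes tested were called higher and 4.05% lower. The same comparison gave 2.89 ± 0.20 for LMO2 RNA itself (limma adjusted p = 1.22e-07), so the LMO2 control line held more LMO2 RNA than parental cells while the PDE11A ranges of the lines overlapped. Day 4 minus day 0, averaged over LMO2 control and parental cells, was 0.08 ± 0.10 for PDE11A (SE, 4 libraries a day; limma adjusted p = 1), and day 1 minus day 0 was -0.01 ± 0.10 (limma adjusted p = 1). In those comparisons limma called 0 of 15348 genes, 0%, with 509 genes on day 4 and 657 on day 1 at an unadjusted p under 0.05. With a pseudocount of 0.1 the difference between the lines was 0.27 and the day 4 change 0.29, and neither passed (limma adjusted p = 0.562 and 1). By fold of means, day 4 stood at 2.06 times day 0 in LMO2 control cells and at 0.960 times in parental cells.

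Both LDB1 shRNA libraries held PDE11A far above the control library. PDE11A measured 48.4 TPM with LDB1 shRNA 1 and 30.9 TPM with LDB1 shRNA 2, against 0.489 TPM with the control shRNA. The ratios were 99.0 and 63.3, or 5.05 and 4.42 on the log2(TPM + 1) scale. With 1 library a group there is no replicate check. Of the 12445 genes that reached 5 TPM in a library, 8.94% were at least 2-fold higher on that scale with both shRNAs and 2.21% at least 2-fold lower, a contrast on which PDE11A was chosen. Ranked by the smaller of the 2 log2 ratios, PDE11A was the 4th of those genes, after IGFBP5 (5.43), an insulin-like growth factor binding protein, CALB1 (5.04), a calcium-binding protein, and ITGAX (4.49), an integrin chain of myeloid cells. Next below it came NUPR1 (4.31), a stress-induced chromatin protein, and ANKRD55 (4.26).

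The RNA of LDB1's partners was read in the same libraries. LMO2 measured 44.2 TPM with LDB1 shRNA 1 and 46.2 TPM with shRNA 2, against 131 TPM with the control shRNA, whereas TAL1 measured 105 and 103 TPM against 102 TPM. GATA1 measured 473 and 500 TPM against 681 TPM. KLF1, an erythroid transcription factor, stood at 111 and 165 TPM with the LDB1 shRNAs against 531 TPM with the control shRNA. In the degron set KLF1 averaged 83.5, 15.4 and 4.71 FPKM on days 0, 1 and 4 in degron line 2 and 121, 47.2 and 21.8 FPKM in degron line 1. KLF1 thus stood lower on day 4 than on day 0 in both degron lines. The difference between the lines in its change (degron line 2 minus degron line 1) was -1.47 ± 0.29 (SE; limma adjusted p = 0.349, or 0.00750 with the bio rep as a block). LDB1 RNA in the degron set averaged 71.7 FPKM on day 0 and 35.5 FPKM on day 4 in degron line 2, and 82.3 and 43.5 FPKM in degron line 1. In LMO2 control cells it averaged 99.1 and 91.0 FPKM on those days, and in parental cells 84.5 and 84.4 FPKM. Cell shares and RNA per cell cannot be told apart in any of these bulk values.

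HEL cells expressed PDE11A without any knockdown, and its level overlapped between TAL1 siPools and control. PDE11A measured 7.08, 8.83 and 13.6 CPM with pool 1 and 7.50, 8.24 and 9.07 CPM with pool 2, against 6.16, 7.81 and 6.17 CPM with the non-targeting pool. Pool 1 averaged 9.85 ± 3.40 CPM and pool 2 averaged 8.27 ± 0.781 CPM, against 6.72 ± 0.949 CPM with the non-targeting pool (SD, n = 3 each). With both pools, each library stood above the non-targeting library of its number. A pairing by number is not borne out for pool 1 replicate 3 or for pool 2 replicates 2 and 3, so nothing is read from that order. Replicate 1 of each pool (7.08 and 7.50 CPM) lay below non-targeting replicate 2 (7.81 CPM), and pool 1 replicate 3 was the highest library.

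In edgeR's quasi-likelihood test the pool 1 change was 0.55 ± 0.22 on the log2 scale (SE; adjusted p = 0.208) and the pool 2 change was 0.30 ± 0.22 (adjusted p = 0.673). Of the 16688 genes tested, 4.22% were called with pool 1 (2.56% higher, 1.65% lower) and 1.05% with pool 2 (0.491% higher, 0.563% lower). With the replicate number as a block the pool 1 change was 0.52 and passed (edgeR adjusted p = 0.0354). Without pool 1 replicate 3, the library at 13.6 CPM, it was 0.25 (edgeR adjusted p = 0.655), and over all alternatives the adjusted p ran from 0.0354 to 0.655.

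Among phosphodiesterase genes, the K562 lines other than degron line 1 held mainly PDE4A, PDE7A, PDE8A and PDE3B by FPKM. PDE11A ranked 1st of 24 phosphodiesterase genes by mean FPKM in degron line 1 on day 4, when PDE3B came next at 8.45 FPKM. In the same line it ranked 6th on day 0 and 5th on day 1, and in degron line 2 and LMO2 control cells it ranked 7th on every day. In parental cells it ranked 8th on day 0 and 9th on days 1 and 4. Besides PDE11A, 5 of the 23 listed phosphodiesterase genes passed the filter, and the highest value of the 18 that did not was 0.655 FPKM, of PDE5A.

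The degron-specific change of day 4 is the mean change from day 0 over both degron lines minus that over LMO2 control and parental cells. It was called for 19.8% of the 15348 genes tested, higher for 11.6% and lower for 8.18%. Of the 5 phosphodiesterase genes tested, 1 rose and none fell, with a median of 0.11 against 0.06 over all genes. The gene that rose was PDE3B, which breaks down cyclic AMP and is inhibited by cyclic GMP, at 0.89 ± 0.27 (SE; limma adjusted p = 0.0324). PDE3B averaged 11.5 FPKM on day 4 and 5.38 FPKM on day 0 in degron line 2, and 8.45 FPKM on day 4 and 3.68 FPKM on day 0 in degron line 1. The line difference of PDE3B (degron line 2 minus degron line 1) was -0.02 ± 0.38 (SE; limma adjusted p = 1).

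**Figure D2:**
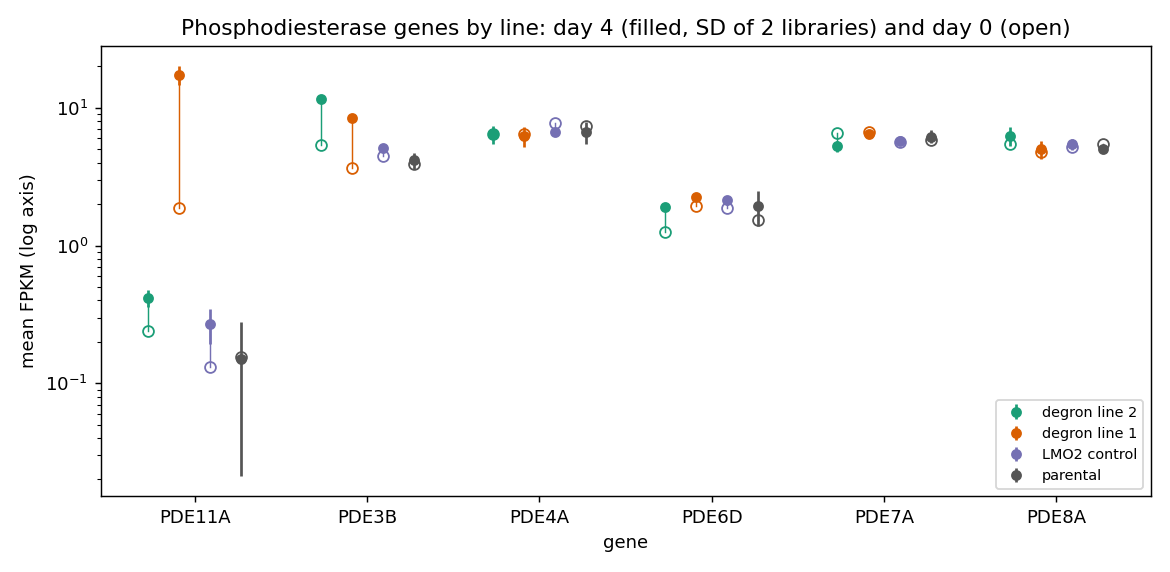
Mean FPKM (log axis) of PDE11A and the 5 other phosphodiesterase genes that passed the filter, by line, on day 4 (filled, with the SD of 2 libraries) and day 0 (open). On day 4 PDE11A stands at 17.3 FPKM in degron line 1 and 0.150 FPKM in parental cells, and PDE3B averages 11.5 FPKM in degron line 2 and 8.45 FPKM in degron line 1 on that day.

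None of the 5 phosphodiesterase genes listed in the LDB1 table besides PDE11A reached 2-fold with both shRNAs, beside 8.94% of all genes higher and 2.21% lower. PDE4A measured 36.2 and 40.5 TPM with the LDB1 shRNAs against 30.0 TPM with the control shRNA, and PDE8A measured 26.6 and 27.9 TPM against 14.7 TPM. HEL cells expressed other members of the family, of which 15 passed the filter. With pool 1, PDE3A (0.42 ± 0.09, SE; edgeR adjusted p = 0.0192) and PDE4D (0.45 ± 0.11; 0.0330) rose, both cyclic AMP phosphodiesterases. PDE5A, which breaks down cyclic GMP, fell with pool 1 (-0.46 ± 0.11; edgeR adjusted p = 0.0306) and with pool 2 (-0.51 ± 0.11; edgeR adjusted p = 0.0439). It averaged 24.2 ± 1.05 CPM with pool 1 and 23.4 ± 1.97 CPM with pool 2, against 33.3 ± 2.51 CPM with the non-targeting pool (SD, n = 3 each). It was the 1 listed gene called with pool 2, and that call was lost without any 1 of the non-targeting libraries, pool 2 replicate 2 or pool 2 replicate 3.

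Of 45 listed genes that make, sense and export cyclic nucleotides, 22 were tested for the degron-specific change of day 4. Of these 6 rose and 2 fell, beside 11.6% and 8.18% of all genes, and 14 did not pass. The median was 0.23 against 0.06 over all genes. With the bio rep as a block 8 rose and 4 fell, the added ones being GNAS (limma adjusted p = 0.0338) and PKIG (0.0375), higher, and PRKAR2B (0.01996) and AKAP1 (0.0194), lower. That fit called more of all genes too, 3080 of 15348 higher and 2391 lower. PRKACB, a catalytic subunit of protein kinase A, rose by 1.53 ± 0.19 (SE; limma adjusted p = 8.51e-05). It averaged 4.64 FPKM on day 4 and 0.791 FPKM on day 0 in degron line 2, and 4.28 FPKM on day 4 and 0.803 FPKM on day 0 in degron line 1. In LMO2 control cells it averaged 1.25 FPKM on day 4 and 1.14 FPKM on day 0, and in parental cells 0.477 and 0.432 FPKM. The PRKACB level after dTAGv1 was thus close in both degron lines, where PDE11A differed 41.5 times.

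The regulatory subunits PRKAR1A (0.77 ± 0.10; limma adjusted p = 8.50e-05) and PRKAR2A (0.84 ± 0.17; 0.00281) rose as well. So did GNAI2, a G-protein subunit that inhibits adenylyl cyclase (0.73 ± 0.14; limma adjusted p = 0.00224), ADCY7, an adenylyl cyclase (0.62 ± 0.17; 0.0160), and ABCC5, an exporter of cyclic nucleotides (0.50 ± 0.12; 0.00901). The 2 that fell, named after their values were seen, were the adenylyl cyclase ADCY3 (-0.65 ± 0.17; limma adjusted p = 0.0169) and the exporter ABCC4 (-0.56 ± 0.18; 0.0423).

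Among CREB factors and targets, 12 of 18 were tested, and 5 rose and none fell, beside 11.6% and 8.18% of all genes, with a median of 0.24 against 0.06 over all genes. CRTC1, a CREB coactivator, rose by 1.23 ± 0.17 (SE; limma adjusted p = 0.000190), to 3.96 FPKM on day 4 in degron line 2, against 1.54 FPKM on day 0, and to 3.45 FPKM in degron line 1, against 1.25 FPKM. CREM, a CREB-family factor that is itself induced by cyclic AMP, rose by 0.99 ± 0.19 (limma adjusted p = 0.00210). The coactivators CREBBP (0.67 ± 0.10; limma adjusted p = 0.000368), EP300 (0.62 ± 0.10; 0.000848) and CRTC3 (0.53 ± 0.11; 0.00450) made up the rest. FOS, NR4A2, PER1 and DUSP1, the targets tested, did not pass, and their values were -0.38, 0.05, -0.23 and -0.20.

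No listed gene passed the test of a difference between the degron lines. For the difference between the lines in the day 4 change, 0 of the 49 listed genes tested passed limma's test and 0 had an unadjusted p under 0.05, with values from -0.40 to 0.31. Of all 15348 genes 2 passed, or 0.013%, and 471 had an unadjusted p under 0.05. With the bio rep as a block 1 of all genes was called higher and 3 lower, and of the listed genes still 0. For the degron-specific change of day 1, limma called 0 of the 49, with 7 at an unadjusted p under 0.05, in a comparison that called 0.0782% of all genes, 0.0261% higher and 0.0521% lower. ADCY6, an adenylyl cyclase named after its values were seen, had unlike levels in the degron lines before dTAGv1. It averaged 0.0593 FPKM on day 4 and 0.0978 FPKM on day 0 in degron line 2, 1.61 FPKM on day 4 and 2.01 FPKM on day 0 in degron line 1, and 0.977 FPKM on day 4 and 0.904 FPKM on day 0 in parental cells.

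In the LDB1 set, the cyclic nucleotide list had 21 genes listed, of which 3 were at least 2-fold higher with both shRNAs and 1 was lower, beside 8.94% and 2.21% of all genes. PRKACB measured 8.68 and 6.21 TPM with the LDB1 shRNAs against 2.00 TPM with the control shRNA. ADCY6 measured 22.0 and 21.4 TPM against 5.89 TPM, and PKIG, an inhibitor of protein kinase A, measured 54.4 and 34.95 TPM against 13.6 TPM. PRKAR2B, the lower one, is a regulatory subunit of protein kinase A and measured 74.3 and 75.6 TPM against 188 TPM.

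Of 12 listed CREB factors and targets, CREM (41.7 and 38.7 TPM with the LDB1 shRNAs, against 16.0 TPM with the control shRNA), CRTC1 (28.0 and 18.4 against 7.38 TPM) and FOS (5.02 and 5.44 against 1.11 TPM) were at least 2-fold higher and none was lower, beside the same shares of all genes. In HEL with pool 1, 4 of 37 cyclic nucleotide genes tested passed in edgeR, and 0 of 15 CREB genes did, beside 4.22% of all genes. PRKACB averaged 296 ± 26.4 CPM with pool 1 and 257 ± 11.4 CPM with pool 2, against 231 ± 4.55 CPM with the non-targeting pool (SD, n = 3 each). Its log2 change was 0.36 ± 0.08 with pool 1 (SE; edgeR adjusted p = 0.0259) and 0.16 ± 0.08 with pool 2 (edgeR adjusted p = 0.495).

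The other genes that passed with pool 1 were AKAP13, a protein kinase A anchor (0.50 ± 0.08; edgeR adjusted p = 0.00457), GUCY1A1, a subunit of soluble guanylyl cyclase (0.70 ± 0.18; 0.0469), and PRKAR2B, which fell (-0.31 ± 0.08; 0.0413). Over the 4 lists, edgeR called 7 of 78 genes with pool 1 and 1 with pool 2, beside 4.22% and 1.05% of all genes. With the replicate block 19 passed with pool 1, where 1417 of all 16688 genes were called higher and 1471 lower. Without the block, leaving out pool 1 replicate 2 or 3 or non-targeting replicate 1 left 1. Leaving out non-targeting replicate 2 or 3 left 2. ADCY6 averaged 207 ± 36.5 CPM with pool 1 and 215 ± 40.3 CPM with pool 2, against 137 ± 26.3 CPM with the non-targeting pool (SD, n = 3 each). It passed with neither pool in the main test (edgeR adjusted p = 0.0897 and 0.138) and with both under the replicate block (edgeR adjusted p = 3.65e-08 and 1.95e-08).

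None of the genes tested around PDE11A on chromosome 2 passed limma's test of a difference between the degron lines in the day 4 change. Only 0.013% of all 15348 genes did, so passing none is no trait of the neighbours. Of 11 neighbours, 10 were tested, and for the degron-specific change of day 4 there was 1 that rose and 1 that fell, a share near the 19.8% of all genes called, with a median of 0.13 against 0.06. With the bio rep as a block 1 rose and 3 fell, the added ones being PRKRA (limma adjusted p = 0.0428) and FKBP7 (0.0346). Of all 15348 genes, 3080 rose and 2391 fell with that block. TTC30B, a ciliary transport protein gene, rose by 0.48 ± 0.14 (SE; limma adjusted p = 0.0206), and OSBPL6, an oxysterol-binding protein gene, fell by 0.51 on the log2(FPKM + 1) scale (limma adjusted p = 0.0209). TTC30B averaged 3.58 FPKM on day 4 and 2.02 FPKM on day 0 in degron line 2, and 6.36 FPKM on day 4 and 3.36 FPKM on day 0 in degron line 1.

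TTC30A, its near-identical copy, averaged 1.51 FPKM on day 4 and 1.23 FPKM on day 0 in degron line 2, and 3.89 FPKM on day 4 and 2.40 FPKM on day 0 in degron line 1. Reads could have been split between the copies. Its line difference was -0.36 ± 0.29 (SE; limma adjusted p = 1), the same sign as that of PDE11A and past no threshold. Over the 12 line-by-day group means, the profile of TTC30A was the 50th most like that of PDE11A among 12733 genes (Pearson r = 0.87). In the comparison of LMO2 control with parental cells, TTC30B (0.36 ± 0.08; limma adjusted p = 0.00780) and TTC30A (0.42 ± 0.12; 0.0323) were higher in LMO2 control cells and OSBPL6 (-0.39 ± 0.08; 0.00640) was lower. None of the 6 neighbours listed in the LDB1 table reached 2-fold with both shRNAs, beside 8.94% of all genes higher and 2.21% lower. None of 11 passed in HEL with either pool in edgeR, beside 4.22% of all genes with pool 1 and 1.05% with pool 2.

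**Figure D3:**
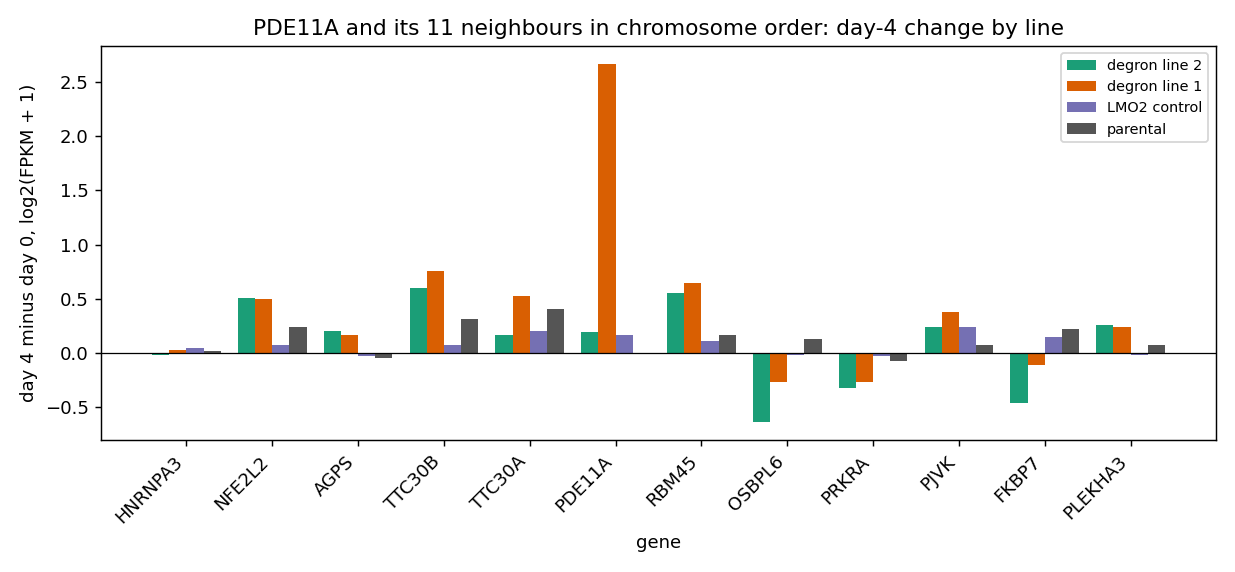
Day 4 minus day 0 on the log2(FPKM + 1) scale for PDE11A and its 11 neighbours in chromosome order, 1 bar for each line (difference of the means of 2 libraries). PDE11A stands at 0.19 in degron line 2 and 2.67 in degron line 1, and the bars of both degron lines lie closer together for each neighbour.

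AC012499.1, an antisense transcript on the opposite strand inside PDE11A that was looked at after the values were seen, had its highest levels in degron line 1 too. It measured 0 and 0 FPKM on day 0, 0 and 0.0241 FPKM on day 1, and 0.0530 and 0 FPKM on day 4 in degron line 2. In degron line 1 it measured 0.135 and 0.144 FPKM on day 0, 0.309 and 0.254 FPKM on day 1, and 1.02 and 0.817 FPKM on day 4. In LMO2 control and parental cells it was at or under 0.120 FPKM. The sources used here give no strand setting for the counting, so reads of PDE11A and of this transcript cannot be told apart.

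The profile of PDE11A over the 12 line-by-day group means was compared with those of 12733 genes, on the log2(FPKM + 1) scale. These Pearson correlations are descriptions over 12 points that share lines and libraries, and the profile is set mainly by degron line 1. The genes most like it were CCDC113, a ciliary coiled-coil protein gene (r = 0.97), ZNF362, a zinc finger gene (0.96), PCAT14, a long noncoding RNA (0.96), LAPTM4B, a lysosomal membrane protein gene (0.95), SPARC, a matrix glycoprotein gene (0.95), and FAM117B (0.94). The lowest values were those of TALDO1, an enzyme of the pentose phosphate pathway (-0.91), OR51B4, an olfactory receptor gene (-0.91), and PCMT1, a protein repair enzyme (-0.93).

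CCDC113 averaged 1.26, 1.33 and 1.38 FPKM on days 0, 1 and 4 in degron line 2 and 5.86, 7.52 and 12.7 FPKM in degron line 1. PCAT14 averaged 1.77, 3.72 and 2.60 FPKM in degron line 2 and 8.01, 20.4 and 37.4 FPKM in degron line 1. SPARC averaged 0.361, 0.346 and 0.505 FPKM in degron line 2 and 2.60, 3.89 and 5.82 FPKM in degron line 1. Like PDE11A, these 3 genes already stood higher in degron line 1 on day 0, without dTAGv1.

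**Figure D4:**
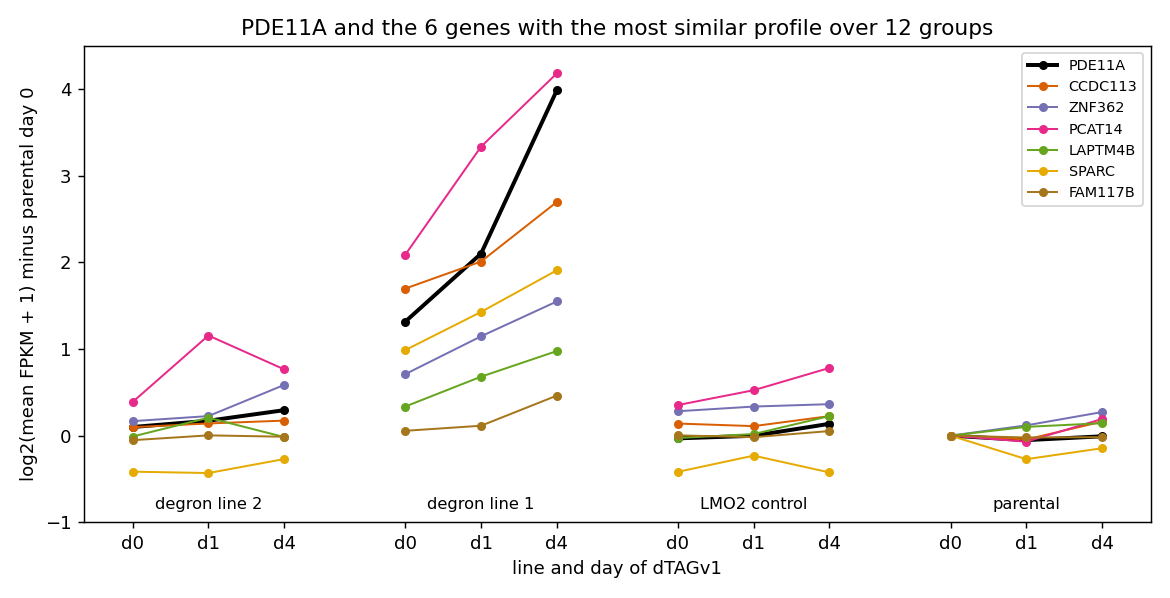
Level of PDE11A and of the 6 genes with the most similar profile, as log2(mean FPKM + 1) minus the parental day 0 value, over the 12 line-by-day groups. In degron line 1 all 7 curves climb over days 0, 1 and 4, and each has its highest point there on day 4.

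The LDB1 libraries, which the correlations did not use but on which PDE11A was chosen, held those 6 genes on both sides of the control. SPARC measured 42.4 and 26.7 TPM with the LDB1 shRNAs against 1.52 TPM with the control shRNA, and PCAT14 measured 12.2 and 11.2 TPM against 2.02 TPM. LAPTM4B measured 273 and 288 TPM against 120 TPM, and CCDC113 measured 9.23 and 6.71 TPM against 4.64 TPM. ZNF362 (6.49 and 5.72 against 7.48 TPM) and FAM117B (3.29 and 3.91 against 6.11 TPM) were lower with both LDB1 shRNAs than with the control. Of the 50 most similar genes, a number chosen after the values were seen, 36 were in the LDB1 comparison, and 13 of them (36.1%) were at least 2-fold higher with both shRNAs and 0 lower, beside 8.94% and 2.21% of all genes there. Their median log2 ratios were 0.75 and 0.50, beside 0.18 and 0.13 over all genes. PDE11A was chosen on both sets, and all genes are no matched background for genes picked by a profile set mainly by degron line 1. These shares are descriptions of 3 libraries, and no common response is read from them.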

How the data were processed

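The submitters' processing notes name hg19 as build and FastQC, STAR and featureCounts as tools; the sources used here give no versions, annotation or strand setting. The authors deposited FPKM for the K562 degron set, raw counts for HEL and TPM for the LDB1 set. FPKM steps gave whole reads for 40926 of 40929 genes with values (within 0.02 reads). FPKM were tested as log2(FPKM + 1) with limma 3.58.1 (R 4.3.3; trend, robust; 12 groups; at least 1 FPKM in at least 2 libraries), HEL counts with edgeR 4.0.16 (quasi-likelihood, TMM, filterByExpr; approximate SE from the test) and, as an alternative, DESeq2 1.42.0. Adjusted p-values are Benjamini-Hochberg over all genes tested, called under 0.05. Scripts were tested on simulated data. TPM were compared as log2(TPM + 1).

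PDE11A, the gene lists and the tests were chosen with earlier results of these data known. Named genes were up to 6 called members per list by smallest adjusted p, and for likeness the 6 highest and 3 lowest correlations. Same-numbered degron-set libraries deviated together (66 pairs of groups, r = 0.12 to 0.66). The numbers were therefore taken as pairs there for the changes by bio rep and for the block, but not in the main tests. In HEL, pool 1 replicates 1, 2 and 3 had r = 0.32, 0.12 and 0.11 with the same-numbered non-targeting library. Their highest r with another number was -0.15, 0.07 and 0.15, so for replicate 3 a pairing is not borne out. The main tests had no block, and the block is given as an alternative. With that block, limma called 3080 genes higher and 2391 lower for the degron-specific change of day 4, and edgeR 1417 higher and 1471 lower with pool 1. For the degron-specific change of day 1 limma then called 71 higher and 96 lower, against 4 and 8 in the main test. For LMO2 control minus parental cells it called 1924 higher and 1255 lower with the block, against 996 and 621. GUCY1A1 is listed under an older symbol in HEL.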

Additional observations from a re-analysis of the deposited data

How the results depend on the processing

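With a pseudocount of 0.1 in place of 1, the PDE11A changes from day 0 were 0.23 on day 1 and 0.61 on day 4 in degron line 2 and 1.04 and 3.14 in degron line 1, and its log2 ratios were 6.36 and 5.72 with the LDB1 shRNAs. With it LMO2 control minus parental was 0.27, and the day 4 and day 1 changes in those lines were 0.29 and -0.0485, none past the test. With a pseudocount of 1 and 1 bio rep left out on both days, the changes in degron line 2 ran from -0.0044 to 0.14 (day 1) and 0.15 to 0.24 (day 4). Those in degron line 1 ran from 0.77 to 0.80 and 2.39 to 2.94. Each of these values rests on 1 library a day. In LMO2 control and parental cells, the PDE11A day 4 change was -0.0097 with parental cells alone and ran from 0.02 to 0.14 without single libraries, the day 1 change ran from -0.0539 to 0.0326, and LMO2 control minus parental from 0.02 to 0.09, none of them past the test. In HEL, PDE11A ran from 0.25 to 0.74 with pool 1 and from 0.23 to 0.42 with pool 2 without single libraries, and with the replicate block pool 1 gave 0.52, past the test (edgeR adjusted p = 0.0354).

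Listed genes called for the degron-specific change of day 4 numbered 16, and 12 to 17 without single libraries, 22 with the replicate block, 11 with parental cells as the only control, 14 with a pseudocount of 0.1 or trimmed-mean rescaling and 16 with no filter. With pool 1 they numbered 7, 1 to 7 without single libraries and 19 with the replicate block. With pool 2 they numbered 1, 0 to 1 without single libraries, 4 with DESeq2, 2 with no filter and 14 with the replicate block. That block called 829 of all 16688 genes higher and 865 lower with pool 2. The pool 2 numbers were not taken as pairs (r = 0.09 to 0.36), since replicates 2 and 3 had a higher r with another number (0.104 and 0.207). The block changed no other call of PDE11A. The causes were not tested. The 17 to 118 reads of PDE11A outside degron line 1 limit what those lines can show, and the unknown depth and single libraries limit the LDB1 set.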
